A study of Homo sapiens with 3 samples.

Results

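The genes of the mitochondrial genome are the 37 genes whose symbols begin with MT- on the mitochondrial chromosome, among 60504 gene identifiers in the deposited table. They comprise 13 protein-coding genes, 2 rRNA genes and 22 tRNA genes, and these 3 classes were treated apart. The values came from RNA-Seq of DLD1, an established colorectal cancer cell line, with 1 library of DLD1 control cells (wild type) and 2 libraries of BEX2-/- DLD1 cells in which BEX2 was targeted by CRISPR/Cas9. The BEX2-/- libraries were of separate clones screened by sequencing, here clone 1 (KO1) and clone 2 (KO2), and the labels place all 3 libraries on one date and one lane. The single control library served both clones. Each clone was 1 library, so a difference between the genotypes cannot be told apart from a difference between clonal lines. BEX2 was listed at 0 in all 3 libraries, so its mRNA gave no check of the labels. The paper describes BEX2 protein as relatively high in DLD1 among colorectal cancer lines. Why the mRNA was listed at 0 in control cells was not tested.

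The human mitochondrial genome is a small circle that is transcribed from both strands as long RNAs covering many genes. Most mRNAs and rRNAs in these transcripts are flanked by tRNAs, and excision of the tRNAs by RNase P and ELAC2 releases them. The mRNAs encode core subunits of the respiratory chain and ATP synthase, and the rRNAs and tRNAs serve the ribosomes that translate them inside the organelle. Some mitochondrial genes end in a T or TA, which the poly(A) tail completes to a stop codon. In the GENCODE annotation, 6 of the 13 protein-coding genes had a length that was not a multiple of 3. Their last 24 bases, taken from the GENCODE 29 transcripts of GRCh38 on the plus strand, are shown to mark these ends, with the incomplete stop codon in capitals.
MT-ND1: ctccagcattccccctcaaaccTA
MT-ND2: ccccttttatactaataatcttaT
MT-CO3: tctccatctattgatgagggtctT
MT-ND3: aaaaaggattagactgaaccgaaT
MT-ND4: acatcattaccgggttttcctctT
MT-CYB: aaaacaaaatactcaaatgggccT

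MT-ATP8 with MT-ATP6, and MT-ND4L with MT-ND4, share bases and are each carried on a single mRNA, so reads in the shared bases cannot be assigned to 1 gene. On the GRCh38 mitochondrial chromosome, to which all positions of MT- genes here refer, MT-ATP8 (8366 to 8572) shares 46 bases with MT-ATP6 (8527 to 9207), and MT-ND4L (10470 to 10766) shares 7 bases with MT-ND4 (10760 to 12137). The last 100 bases of the upstream gene of each pair are shown from the same annotation, plus strand, with the shared bases in capitals.
MT-ATP8: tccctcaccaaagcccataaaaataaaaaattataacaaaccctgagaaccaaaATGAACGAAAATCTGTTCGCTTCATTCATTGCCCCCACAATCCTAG
MT-ND4L: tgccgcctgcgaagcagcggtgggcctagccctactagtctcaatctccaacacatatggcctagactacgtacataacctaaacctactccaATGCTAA
The shared bases begin with the ATG of the downstream gene in both pairs.

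Values were FPKM, which scale the fragments counted to a gene by gene length and library size. They rank genes only roughly, since genes carried on a single mRNA had unlike values. In control cells MT-ATP8 was at 1176 FPKM and MT-ATP6 at 5452. The recovered depth was 47458849 reads in DLD1 control cells, with 35593991 in clone 1 and 47722378 in clone 2. Of 12 epithelial markers, 11 passed a mean of 1 FPKM, with EPCAM at 220 to 282 FPKM. CDX1 did not pass, and VIL1 was at 3.61 FPKM in control cells, 13.2 in clone 1 and 0.221 in clone 2, so the clones lay on opposite sides of the control. In contrast, 0 of 10 markers of immune, stromal, endothelial and muscle cells passed. The summed level of these 10 markers was 0.846 to 1.07 FPKM, and PTPRC, COL3A1 and CDH5 were listed at 0 in every library. Fewer mitochondrial genomes, less RNA from each genome and less mitochondrial RNA per cell cannot be told apart in such bulk samples.

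Mitochondrial mRNAs were among the most abundant RNAs of all 3 libraries. Of the 10 genes with the highest FPKM, 9 were mitochondrial in DLD1 control cells, with 9 in clone 1 and 9 in clone 2. The 13 protein-coding genes held 23.6% of the summed FPKM in DLD1 control cells, with 23.4% in clone 1 and 21.3% in clone 2. The clone mean was 22.3% ± 1.49 (SD, n = 2), so the control share lay within 1 SD of the clone mean. The same genes held 2915933, 2087545 and 2513882 reads in control cells, clone 1 and clone 2, or 6.14%, 5.86% and 5.27% of the depth.

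**Figure D1:**
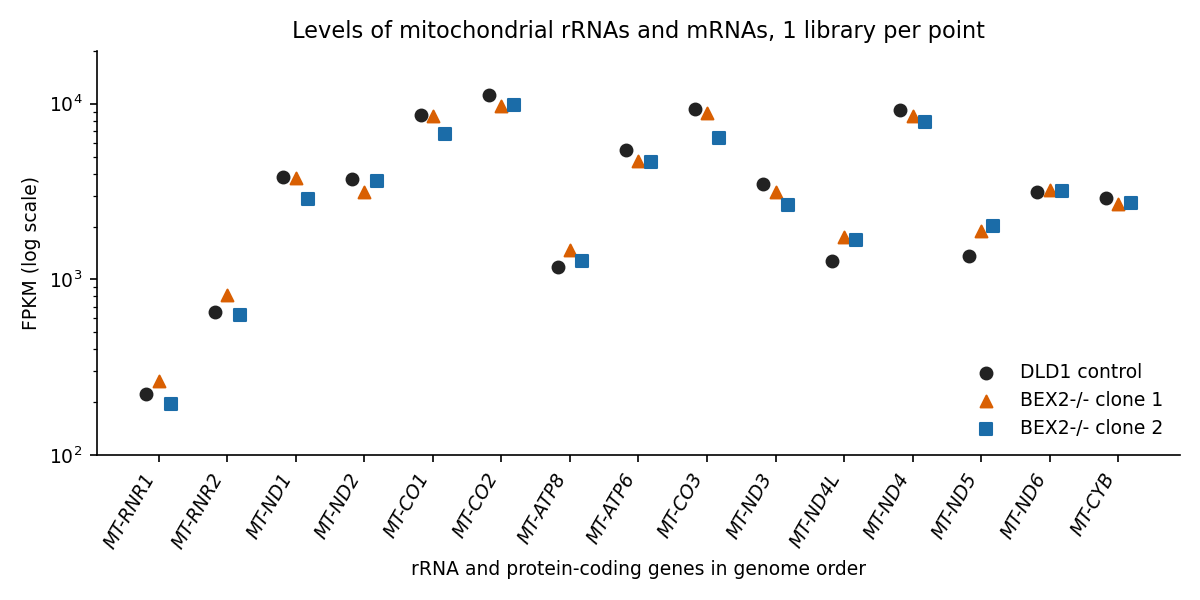
FPKM (log scale) of the 2 rRNA genes and the 13 protein-coding genes in genome order, with 1 point per library (black circle, DLD1 control; orange triangle, clone 1; blue square, clone 2). The 3 libraries give nearly the same profile, with MT-CO2 highest, and both clones lie above the control for MT-ATP8, MT-ND4L, MT-ND5 and, by a small margin, MT-ND6.

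In both clones, 4 protein-coding genes (MT-ND5, MT-ND4L, MT-ATP8 and MT-ND6) were higher than in control cells and the other 9 were lower. Across the 11675 genes past the filter on low values, 32.4% were higher and 27.7% were lower in both clones by any amount. The largest ratios were 1.47-fold for MT-ND5 and 0.682-fold for MT-CO3, both in clone 2. None of the 13 genes reached 2-fold on the same side of the control in both clones, against 0.120% of all genes on the higher and 0.206% on the lower side, and limma called 0 of the 13 genes at an adjusted p under 0.05. The same test called 0 of the 11675 genes (0.00%), and 139 of them had an unadjusted p under 0.05, among them MT-ND5. Without the filter limma called 9 members, in a fit where most listed genes were at 0 and the residual variance could not be estimated reliably. The side of the smallest ratios depended on the scaling of the libraries. MT-ND1 and MT-CO1 lay on opposite sides in the clones after scaling to TPM or to the genes outside the mitochondrial genome, MT-ND2 after scaling to TPM, and MT-ND6 after median-ratio scaling. The other 9 genes kept their sides in both clones under these scalings.

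Over the 13 protein-coding genes, the median log2 ratio to control was -0.083 in clone 1 and -0.19 in clone 2. Over all genes past the filter the medians were 0.037 and -0.013. Of the 13 genes, 9 were lower in clone 2 than in clone 1. The counting error of these ratios was small, with a SD of at most 0.0193 on the log2 scale, so reads were not the limit. The limit was the single control library, which left 1 residual degree of freedom for the test.

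**Figure D2:**
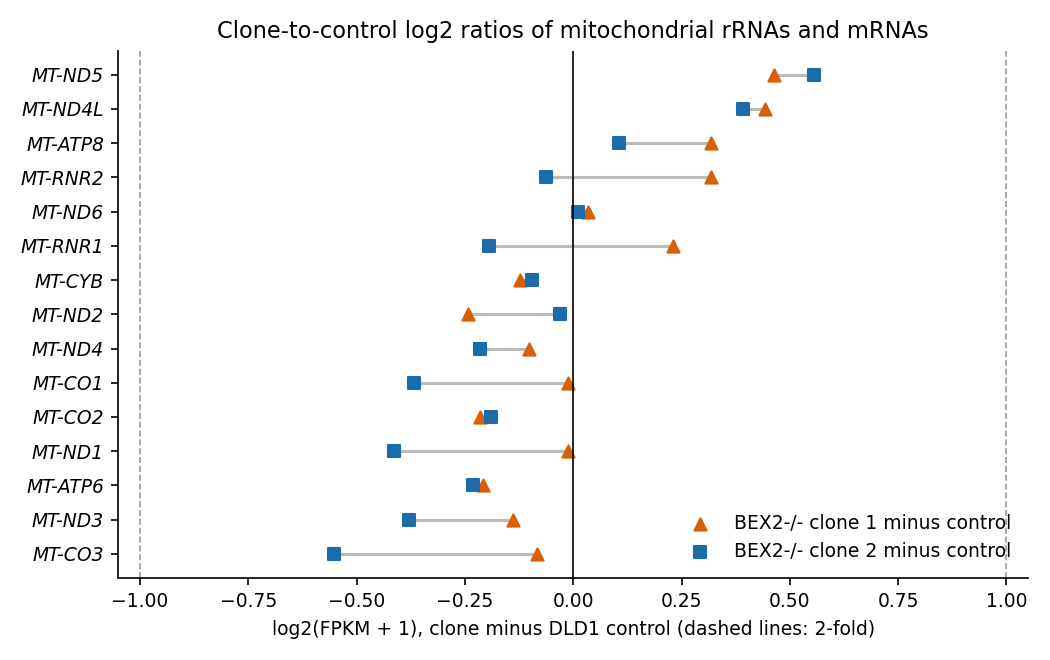
Difference in log2(FPKM + 1) between each clone and DLD1 control cells for the 13 protein-coding and 2 rRNA genes, ordered by the mean of both clones (orange triangle, clone 1; blue square, clone 2; grey line, the span between the clones; dashed lines, 2-fold). MT-ND5 and MT-ND4L lie farthest to the right in both clones, and MT-CO3 and MT-RNR1 have the widest spans between the clones.

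Complex I, the NADH dehydrogenase that passes electrons to ubiquinone, is encoded in part by 7 of the 13 genes. MT-ND5 (ENSG00000198786; plus strand, 12337 to 14148), which encodes a proton-pumping membrane subunit, was at 1363 FPKM in DLD1 control cells, with 1880 in clone 1 and 2003 in clone 2. Both clones lay above the control, and the gap between the clones was smaller than the gap to the control. The log2 ratios were 0.46 in clone 1 and 0.55 in clone 2, with an averaged difference of 0.51 (SE 0.159), an unadjusted limma p of 0.0387 and a Benjamini-Hochberg adjusted limma p of 0.9999. MT-ND4L, a small membrane subunit, was at 1275 FPKM in control cells, with 1732 in clone 1 and 1673 in clone 2. Both clones were above the control, at 1.36-fold and 1.31-fold, with an unadjusted limma p of 0.0622. MT-ND6, the 1 protein-coding gene on the minus strand (14149 to 14673), was at 3152 FPKM in control cells, with 3229 in clone 1 and 3177 in clone 2. Its ratios of 1.02 and 1.01 gave the smallest averaged log2 difference of the class, 0.023. Use of strand in counting is not given, so RNA from either strand of this gene cannot be told apart.

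The other complex I genes encode membrane subunits as well and were lower in both clones. MT-ND4, which encodes another pumping subunit, was at 9163 FPKM in control cells, with 8532 in clone 1 and 7886 in clone 2. MT-ND3 (10059 to 10404) was at 3470, 3153 and 2668 FPKM in the same order. Both genes were lower in clone 2 than in clone 1, and the control lay more than 1 clone SD above the clone mean. MT-ND1 (3307 to 4262), whose product contributes to the ubiquinone site, was at 3820 FPKM in control cells, with 3788 in clone 1 and 2867 in clone 2. MT-ND2 (4470 to 5511) was at 3706, 3132 and 3628 FPKM. For MT-ND1 the control and clone 1 were nearly equal, for MT-ND2 the control and clone 2, and in both the control lay within 1 SD of the clone mean. The ratio of MT-ND1 to MT-ND2 was 1.03 in control cells, with 1.21 in clone 1 and 0.790 in clone 2, so the clones lay on either side of the control.

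Cytochrome c oxidase, or complex IV, reduces oxygen to water, and 3 of its subunits are encoded in the mitochondrial genome. MT-CO2 (7586 to 8269), which carries the copper site that accepts electrons from cytochrome c, was the highest mitochondrial gene of every library at 11186 FPKM in control cells, with 9640 in clone 1 and 9800 in clone 2. The clones differed from each other by less than either did from the control. MT-CO1 (5904 to 7445), the catalytic subunit, was at 8629 FPKM in control cells, with 8553 in clone 1 and 6687 in clone 2. MT-CO3 (9207 to 9990), a structural core subunit, was at 9372, 8850 and 6394 FPKM. For MT-CO1 and MT-CO3, clone 1 was near the control and clone 2 stood apart, at 0.775-fold and 0.682-fold of the control. The sum of the 3 mRNAs was 0.927-fold of the control in clone 1 and 0.784-fold in clone 2.

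MT-CYB (14747 to 15887), cytochrome b of complex III, was at 2924 FPKM in control cells, with 2685 in clone 1 and 2736 in clone 2. Both ratios, 0.918 and 0.936, were close to 1. For ATP synthase, or complex V, MT-ATP6 encodes the subunit that forms the proton path beside the rotating ring, and was at 5452 FPKM in control cells, with 4719 in clone 1 and 4640 in clone 2. MT-ATP8 encodes a small membrane subunit and was at 1176, 1468 and 1265 FPKM. The members of this overlapping pair thus lay on opposite sides of the control in both clones. The ratio of MT-ATP8 to MT-ATP6 was 0.216 in control cells, with 0.311 in clone 1 and 0.273 in clone 2.

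The second overlapping pair also lay on opposite sides of the control. The ratio of MT-ND4L to MT-ND4 was 0.139 in control cells, with 0.203 in clone 1 and 0.212 in clone 2. These ratios are taken within a library and do not depend on scaling between libraries. A further within-library ratio, that of MT-ND5 to its downstream plus-strand neighbour MT-CYB, was 0.466 in control cells, with 0.700 in clone 1 and 0.732 in clone 2. With 1 control library, none of these ratios was tested. By FPKM, MT-ATP8, MT-ND4L and MT-ND5 were the 3 lowest protein-coding genes in all 3 libraries, and all 3 were higher in both clones. MT-ATP8 and MT-ND4L each share an mRNA with a gene of higher FPKM, so their low rank does not show fewer mRNA molecules. The ratio of the highest to the lowest FPKM of the class (MT-CO2 to MT-ATP8) was 9.51 in control cells, with 6.57 in clone 1 and 7.75 in clone 2.

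The 6 genes with an incomplete stop codon, whose ends are printed above, were all lower in both clones. Of the 7 genes with a whole stop codon, 4 were higher and 3 (MT-CO1, MT-CO2 and MT-ATP6) were lower. Since MT-ND1, MT-ND2 and MT-CO1 lay on opposite sides in the clones after scaling to TPM, this split is a description of the deposited values. The split was not planned, and it parts MT-ND4L from MT-ND4, which are carried on a single mRNA. Genes cut from one precursor RNA are not independent, and no test was made.

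**Figure D3:**
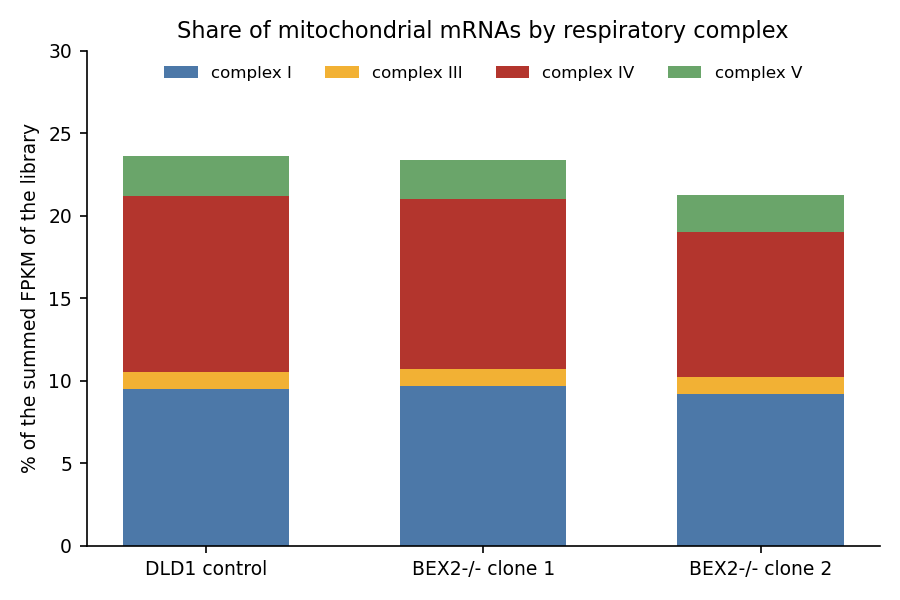
Share of each library's summed FPKM held by the protein-coding mitochondrial genes of complex I (7 genes), complex III (1 gene), complex IV (3 genes) and complex V (2 genes), with 1 stacked bar per library. The bars reach 23.6%, 23.4% and 21.3% in DLD1 control cells, clone 1 and clone 2, and the complex IV segment is smallest in clone 2.

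Within the summed FPKM of the 13 genes, complex I held 40.1% in control cells, with 41.5% in clone 1 and 43.1% in clone 2. Complex IV held 45.1%, 44.1% and 41.3% in the same order. Complex III held 4.52%, 4.38% and 4.94%, and complex V held 10.2%, 10.1% and 10.7%. For complexes I and IV, the shares of clone 1 thus lay between those of the control and clone 2. In clone 2 complex I made up more, and complex IV less, of these genes than in the other libraries. The complex I genes summed to 25949 FPKM in control cells, 25445 in clone 1 and 23901 in clone 2, so their level itself was lowest in clone 2.

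The 2 rRNAs were at lower FPKM than any of the mRNAs in every library. MT-RNR1, the 12S rRNA of the small ribosomal subunit (648 to 1601), was at 224 FPKM in control cells, with 263 in clone 1 and 196 in clone 2. MT-RNR2, the 16S rRNA of the large subunit (1671 to 3229), was at 656, 817 and 627 FPKM. Both were higher than control in clone 1 and lower in clone 2, and the control lay within 1 SD of the clone mean. After scaling to TPM, MT-RNR2 was higher in both clones. Their adjusted limma p was 0.9999, with unadjusted values of 0.947 for MT-RNR1 and 0.621 for MT-RNR2. The ratio of MT-RNR2 to MT-RNR1 was 2.93 in control cells, with 3.10 in clone 1 and 3.21 in clone 2. The class held 0.321%, 0.411% and 0.316% of the summed FPKM. How the RNA was selected before library construction is not given beyond the kit's name and catalogue number. These levels therefore describe the libraries and not the rRNA content of the cells.

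Of the 22 tRNA genes, 17 were listed at 0 in every library, and 5 had at least 1 read. The 4 that passed a mean of 1 FPKM are shown as the annotated gene on its own strand, with the anticodon in capitals, because their reads make up nearly the whole class. MT-TP (proline), MT-TC (cysteine) and MT-TY (tyrosine) lie on the minus strand and MT-TF (phenylalanine) on the plus strand.
MT-TP: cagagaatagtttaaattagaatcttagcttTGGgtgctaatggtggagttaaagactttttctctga
MT-TC: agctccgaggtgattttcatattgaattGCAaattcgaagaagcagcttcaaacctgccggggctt
MT-TY: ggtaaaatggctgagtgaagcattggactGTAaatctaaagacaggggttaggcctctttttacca
MT-TF: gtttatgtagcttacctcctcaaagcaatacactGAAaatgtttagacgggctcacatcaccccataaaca

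MT-TP (15956 to 16023) carried nearly all tRNA reads, and had 2951 in control cells, 2499 in clone 1 and 2556 in clone 2. These reads correspond to 914, 1032 and 788 FPKM, so clone 1 was above the control and clone 2 below it. The ratio to control was 1.13 (exact 95% interval 1.07 to 1.19) in clone 1 and 0.861 (0.817 to 0.909) in clone 2. These intervals cover counting error only and not the spread between cultures. MT-TC (5761 to 5826) had 8 reads in control cells, with 16 in clone 1 and 12 in clone 2. Its neighbour MT-TY (5826 to 5891), which shares 1 base with it, had 7, 7 and 13 reads. For MT-TC in clone 1 the ratio was 2.67 (1.08 to 7.20), while the intervals for MT-TC in clone 2 (0.561 to 4.21) and for MT-TY in clone 1 (0.399 to 4.45) and clone 2 (0.685 to 5.47) all held 1. MT-TF (577 to 647) had 3 reads in control cells, with 0 in clone 1 and 8 in clone 2. Its ratio in clone 2 was 2.65 (0.637 to 15.5). MT-TL1 had 2 reads in control cells and 0 in both clones. With 16 reads or fewer per gene, the tRNAs other than MT-TP gave wide intervals, which were not adjusted for their number. Limma called 0 of the 4 tRNA genes past the filter, each with an adjusted p of 0.9999.

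**Figure D4:**
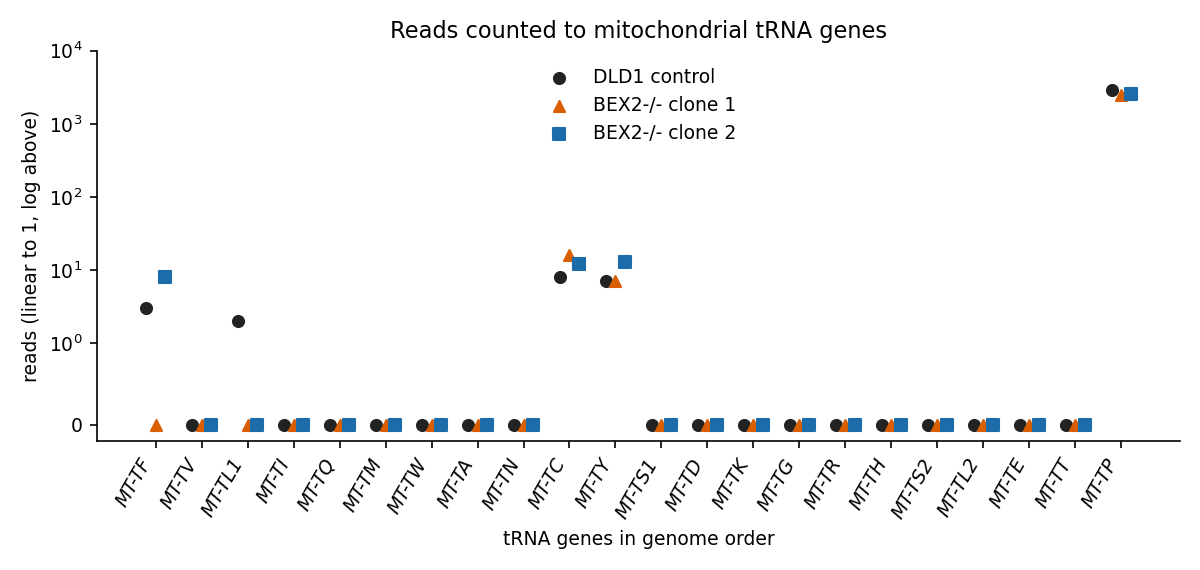
Reads counted to each of the 22 tRNA genes in genome order, on an axis that is linear to 1 read and logarithmic above, with 1 point per library (black circle, DLD1 control; orange triangle, clone 1; blue square, clone 2). MT-TP holds about all of the reads at 2499 to 2951 per library, MT-TC, MT-TY, MT-TF and MT-TL1 hold 16 or fewer, and the other 17 genes are at 0.

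Where reads on a gene can be counted, a count of 0 allows up to 3 reads. For the 17 genes listed at 0 (59 to 73 nt), this is 0.861 to 1.43 FPKM. The counting is not given, and whether reads could be assigned to such short genes was not tested. Reads were found on 3 of the 8 minus-strand tRNA genes and on 2 of the 14 plus-strand ones. Since use of strand in counting is not given, reads on any tRNA gene, MT-TP included, may come from RNA of either strand. All 5 tRNA genes with reads bordered bases without an annotated gene, as did 10 of the 17 listed at 0. In genome order, MT-TF had 576 gene-free bases before it, MT-TC 31 before it and MT-TY 12 after it, and no gene is annotated beyond MT-TP. Among the 10 listed at 0, MT-TN had 31 gene-free bases after it and MT-TK 25 before it. Short mature tRNAs are poorly represented in libraries of this kind, and whether these reads came from mature tRNAs or from precursors was not tested.

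Nuclear pseudogenes with near-identical sequence can take reads from mitochondrial genes. Of 401 listed copies, 351 were at 0 in every library and 12 passed a mean of 1 FPKM. The highest was MTATP6P1, on chromosome 1 (633696 to 634376), at 868 FPKM in control cells, with 752 in clone 1 and 756 in clone 2. Its ratios to control of 0.867 and 0.871 stand beside 0.866 and 0.851 for MT-ATP6. MTND5P11, on chromosome 5 (134924648 to 134926459), was at 1.221, 2.233 and 2.024 FPKM, and was higher in both clones like MT-ND5. MTCO2P2 was at 4.59, 2.75 and 3.45 FPKM and was lower in both clones like MT-CO2. MTCO2P12, a more abundant copy of the same gene, was at 22.6, 23.4 and 22.7 FPKM and was slightly higher in both clones, on the other side from MT-CO2. The copy lay on the same side of the control as its mitochondrial gene in 7 of 12 cases in clone 1 and in 10 of 12 in clone 2. Many of these copies lie close together on chromosome 1 or chromosome 5, and some resemble the same mitochondrial gene. The cases are therefore not independent, and these counts were not tested. How reads that map to both were shared out is not given in the sources used here, so the levels of these copies and their mitochondrial genes are uncertain to that extent. Apart from MTATP6P1, each copy was at 35.2 FPKM or less in every library.

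**Figure D5:**
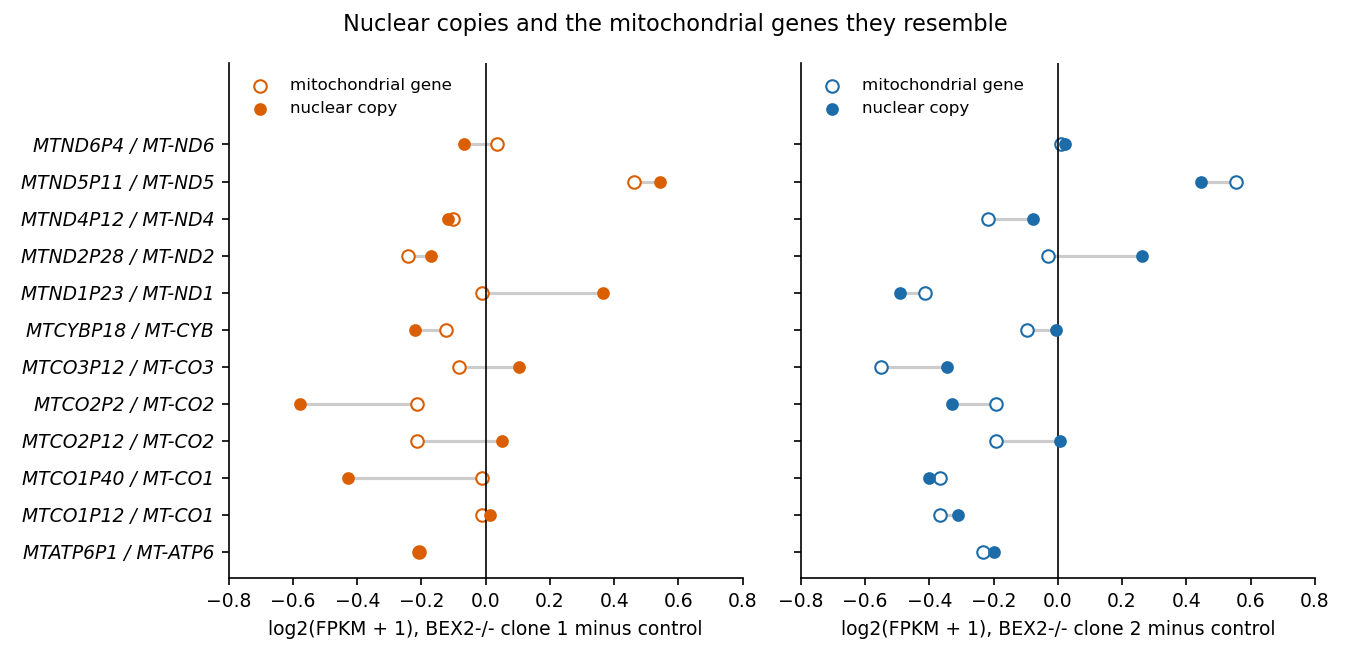
Difference in log2(FPKM + 1) from DLD1 control cells in clone 1 (left) and clone 2 (right) for the 12 nuclear copies past the filter (filled circles) and the mitochondrial genes they resemble (open circles), joined by a grey line. MTATP6P1 and MT-ATP6 nearly coincide in both clones, while MTCO2P12 in both clones, MTND1P23 in clone 1 and MTND2P28 in clone 2 are among those on the other side of 0 from their genes.

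Mitochondrial genes are transcribed, cut and translated by proteins of the nuclear genome, and lists of these were examined beside them. No gene of these lists was called by limma, and none reached 2-fold on the same side of the control in both clones. Over all 11675 genes past the filter, limma called 0.00%. The 2-fold rule held for 0.120% on the higher and 0.206% on the lower side. The absence of such genes from the lists was thus near the share of all genes. Of 10 transcription genes, 9 passed the filter, with 2 higher and 3 lower in both clones and medians of 0.003 and -0.029 (log2, clone 1 and clone 2). POLRMT, the mitochondrial RNA polymerase, was at 15.5 FPKM in control cells, with 12.4 in clone 1 and 16.2 in clone 2, and TFAM, which packages and activates the genome, was at 9.998, 9.402 and 9.909 FPKM. Both were named for their role in transcription after their values were seen. In this list the highest was MTERF3 (19.5, 18.8 and 19.1 FPKM), the highest ratio was that of MRPL12 (6.703, 8.855 and 7.094 FPKM) and the lowest that of MTERF4 (3.55, 3.56 and 2.78 FPKM).

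Of 25 RNA processing and stability genes, 23 passed, with 4 higher and 8 lower in both clones and medians of 0.043 and -0.067. HSD17B10, a subunit of mitochondrial RNase P, was the highest at 122, 104 and 106 FPKM in control cells, clone 1 and clone 2. The ratios were highest for REXO2, an oligoribonuclease (12.22, 16.37 and 13.04 FPKM), and lowest for GTPBP3, a tRNA-modifying enzyme (9.36, 7.79 and 6.46 FPKM). Of 17 replication and maintenance genes, all 17 passed, with 3 higher and 10 lower in both clones and medians of -0.054 and -0.12. The single-strand binding protein SSBP1 was the highest (29.50, 26.95 and 25.95 FPKM), POLG2 had the highest ratio (3.10, 4.13 and 3.40 FPKM) and PRIMPOL the lowest (6.21, 5.73 and 4.19 FPKM).

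The translation machinery gave small differences in the same range. Of 78 mitochondrial ribosomal protein genes, 77 passed, with medians of -0.056 and -0.23. In both clones 4 were higher (5.19%) and 47 lower (61.0%), against 32.4% and 27.7% of all genes past the filter. The highest was MRPS34 (184, 147 and 123 FPKM), the lowest ratio was that of MRPL11 (42.87, 31.97 and 28.78 FPKM) and the highest that of MRPL53 (1.61, 2.51 and 1.92 FPKM). After scaling to TPM, 10 were higher and 37 lower in both clones, against 41.2% and 19.8% of all genes, and these counts were not tested as a group. Of 14 translation factors, all 14 passed, with 1 higher and 4 lower in both clones and medians of 0.038 and -0.15. The elongation factor TUFM was the highest (165, 154 and 150 FPKM), the release factor MTRF1L had the highest ratio (3.45, 4.13 and 4.03 FPKM) and the elongation factor TSFM the lowest (8.55, 8.46 and 5.97 FPKM).

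Of 22 genes for charging tRNAs (synthetases and the amidotransferase subunits QRSL1, GATB and GATC), 21 passed. Of these, 2 were higher and 5 lower in both clones, with medians of 0.034 and -0.097. KARS1 was the highest (66.93, 64.25 and 63.07 FPKM). PARS2, which charges the mitochondrial proline tRNA encoded by MT-TP, had the highest ratio of this list at 3.85 FPKM in control cells, with 5.61 in clone 1 and 5.63 in clone 2. Its unadjusted limma p was 0.0778. VARS2 had the lowest ratio (6.265, 5.447 and 4.695 FPKM). Of 17 markers of mitochondrial mass and biogenesis, 15 passed, with 3 higher and 4 lower in both clones and medians of 0.050 and -0.11. The chaperonin HSPD1 was the highest (284, 295 and 263 FPKM), GABPA had the highest ratio (4.45, 5.82 and 4.74 FPKM) and the import channel TOMM40 the lowest (68.4, 55.2 and 48.4 FPKM). Of 12 epithelial markers, 11 passed, with 4 higher and none lower in both clones and medians of 0.31 and 0.085. KRT8 was the highest (538, 510 and 611 FPKM), KRT19 had the highest ratio (305, 442 and 494 FPKM) and CLDN3 the lowest (9.957, 10.03 and 4.984 FPKM).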

How the data were processed

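The authors deposited FPKM values per gene. The submitters' processing notes name Trim Galore 0.3.7, STAR 2.5, Cufflinks 2.2.1, DESeq 1.22.1 and hg19, without roles. The annotation, counting and use of strand are not given in the sources used here. RNA was extracted with Trizol, and sequencing libraries were constructed using an Illumina TruSeq kit. Symbols, positions and lengths came from GENCODE 29 on GRCh38.

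Ratios were taken as log2(FPKM + 1), which understates the change of low genes. A gene passed the filter when the control level and the clone mean averaged 1 FPKM or more. The 2 clones were compared with the control by limma 3.58.1 with trend in R 4.3.3, with Benjamini-Hochberg adjustment over 11675 genes. The control had no replicate and was assumed to vary like the clones, and p-values measure only the spread between these libraries. The 2-fold rule involved no test. Reads were recovered by multiplying FPKM by exon length and depth. Low values became whole within 0.02 reads for 98.7% to 98.8% of single-transcript genes and for 87.8% to 88.3% of others, and all 37 members were whole within 0.05 reads. Intervals of read ratios were exact 95% intervals.

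All protein-coding and rRNA members are named, with the tRNA genes past the filter. Of each nuclear list, the highest gene and the genes of highest and lowest averaged ratio are named. VIL1, CDX1, EPCAM, POLRMT, TFAM and further nuclear copies were named after their values were seen. The members and lists were chosen with earlier results of these data known. The limma step was run on simulated data with changes larger than those of the protein-coding members. That run did not measure the power of the test for these members. Calculations used scipy 1.17.1, pandas 2.3.3 and numpy 2.4.6 under Python 3.11.15, and plots used matplotlib 3.10.9.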

Additional observations from a re-analysis of the deposited data

How the results depend on the processing

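No paired analysis was possible because the control had 1 library and the groups shared fewer than 2 replicate numbers. The number of members called by limma was 0 with a pseudocount of 0.1 FPKM, a mean of at least 5 FPKM, median-ratio scaling, TPM scaling, scaling to genes outside the mitochondrial genome, no trend, or protein-coding genes only. With no filter on low values it was 9 (MT-ND1, MT-CO1, MT-CO2, MT-ATP6, MT-CO3, MT-ND3, MT-ND4L, MT-ND4 and MT-ND5) of 240 genes called among 60504. In that fit limma warned that most residual variances were exactly 0, since most listed genes are at 0, so its calls are unreliable. The number of members at least 2-fold in the same direction was 0 to 1 when either clone was left out, and MT-TC was that member with clone 1 alone. It was 0 under all other settings, a 1.5-fold threshold included.

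The averaged median log2 ratio of the protein-coding genes was -0.16, and -0.19 to -0.083 when either clone was left out. It was -0.18 to -0.093 under the other settings and -0.16 over the 8 genes that share no base with another gene. The rRNA median ranged from -0.13 to 0.27 when either clone was left out. The averaged log2 ratio of MT-TP was -0.020 and became 0.046 with TPM scaling and 0.023 with scaling to genes outside the mitochondrial genome. With these scalings MTERF3 became 0.025 and 0.0016, and HSPD1 became 0.039 and 0.015. TPM scaling put the median of all genes at 0.1001 in clone 1 and 0.053 in clone 2. Of 143 values of the 19 members past the filter under the alternatives with a test, 132 had the same direction and side of the threshold as reported, and of 205 values of 27 other named genes, 200 did. When a clone was left out, which allows no test, the sign turned for MT-RNR1, MT-RNR2 and MT-TF (-0.19, -0.064 and 0.83 without clone 1) and for MT-TP (0.18 without clone 2). It also turned without clone 2 for MTERF4 (0.0031), HSPD1 (0.056), KRT8 (-0.076) and CLDN3 (0.010). The restrictions to protein-coding genes and to genes sharing no base were chosen after seeing the data. The single control library limits every comparison. Low read counts, whose cause was not tested, limit the tRNA genes other than MT-TP.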
